A study of Mus musculus with 47 samples.

Results

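The CLK:BMAL1 binding sites described here are the intergenic peaks that the submitters placed in the class closer than 10 kb. They make up 9.14% of the 3217 peaks in the submitters' list, all but 2923 of it. Members were taken from the genomic class given in the list, and the rule uses no MNase value. The sources used here do not say from which feature the 10 kb was measured, and the list pairs no peak with a gene. Nucleosome-sized DNA around these sites was measured by MNase-seq in 47 mouse livers, 24 wild-type and 23 Bmal1-/-, 1 mouse per library. Wild-type and Bmal1-/- C57BL/6 animals, 3 to 6 months old, had been held under 12 h light and 12 h dark for at least 2 weeks. Livers were taken at 6 zeitgeber times (ZT, counted in hours from lights on), ZT02, ZT06, ZT10, ZT14, ZT18 and ZT22. Each genotype had 4 mice per time, except 3 Bmal1-/- mice at ZT22. The tissues in which the Bmal1-/- allele acts are not described in the labels, and bulk liver holds several cell types. All samples of both genotypes were crosslinked with 1% formaldehyde for 10 min, digested with 30000 gel units of micrococcal nuclease for 15 min, and selected for DNA of about 150 nt.

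CLOCK (CLK) and BMAL1 form a heterodimeric transcription factor that binds E-box sequences and drives the circadian clock, including the Per and Cry genes whose proteins later repress it. In mouse liver its binding to DNA is rhythmic and strongest in the daytime. Micrococcal nuclease cuts DNA that is not wrapped around histones or otherwise protected, so a site depleted of nucleosomes gives a trough in the profile. Intergenic sites of such factors often act as enhancers, which control genes at a distance.

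The peaks of the class were 40 to 659 bp wide with a median of 309 bp, the same median as the other 2923 peaks. The narrowest, also the last of the whole list at rank 3217, lay at chr1:174240141-174240181 in mm9, and the widest, at rank 439, lay at chr7:29167111-29167770. The first 3 of the class in list order were at rank 2 (chr11:68908211-68908501), rank 3 (chr11:98644571-98645021) and rank 8 (chr11:68908511-68908830). The peaks of ranks 2 and 8 are neighbours on the chromosome, so each lies in the other's 3000 bp window. The last members before rank 3217 were at rank 3204 (chr17:26649431-26649780) and rank 3206 (chr5:115117681-115117870). The order of the list is not explained in the sources used here.

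Members were spread over the whole list, from 22 to 38 in each of 10 equal stretches of it. Chromosome 11 carried 30 of them and chromosome X carried 1, the chromosomes with the most and the fewest peaks of the list. The class made up 12.05% of the peaks on chromosome 11, close to its 12% on chromosome 16, 11.9% on chromosome 19 and 11.8% on chromosome 8. Its share was 9.14% over the whole list and lowest on chromosome 17, at 2.6%. Members lay closer to another peak than did peaks elsewhere, with a median distance to the nearest peak of 18865 bp in the class and 47765 bp over all other peaks. Windows of 77 members (26.2%) overlapped the window of another peak, against 553 (18.9%) of the other peaks. For 62 of the members that neighbour was of the same class, and for 12 it was a peak at a transcription start site (TSS). Values of such members are therefore not independent of each other.

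The deposited class profile averages 1 peak fewer than the class holds in the list. Signal in a library moves in steps of 1 covering fragment, and 100% of the class values were whole numbers of fragments, within 0.1 of a step, when 1 peak fewer was assumed, against 20.3% with the listed number. The all-peak profile, of 3216 peaks, was recovered from its 4 classes to within 8.99e-10 signal units with the same smaller number. Which listed peak is absent from the profile is not known. Relative depth ran from 1 in the shallowest library to 2.09, and averaged 1.52 ± 0.299 over the wild-type libraries (SD, n = 24) and 1.36 ± 0.229 over the Bmal1-/- libraries (SD, n = 23). A central position of the class profile was covered by 1973 to 4264 fragments, a counting error of 1.53% to 2.25%. Such errors cover counting alone, since reads without molecular identifiers need not be separate molecules.

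In both genotypes the sites lay in a trough of MNase signal, and the trough was shallower without BMAL1. The lowest position of the mean profile was 25 bp from the window middle in both. Mean signal there, in units of scaled coverage, was 4.18 ± 0.166 (SD, n = 4 series) in wild type and 4.69 ± 0.289 (SD, n = 4 series) in Bmal1-/-. A series groups the mice, 1 per time, whose labels share a replicate number. Highest signal of the window lay 655 bp to the left of the middle in wild type, at 6.81 ± 0.130, and 625 bp to the left in Bmal1-/-, at 6.71 ± 0.316 (SD, n = 4 series each).

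**Figure D1:**
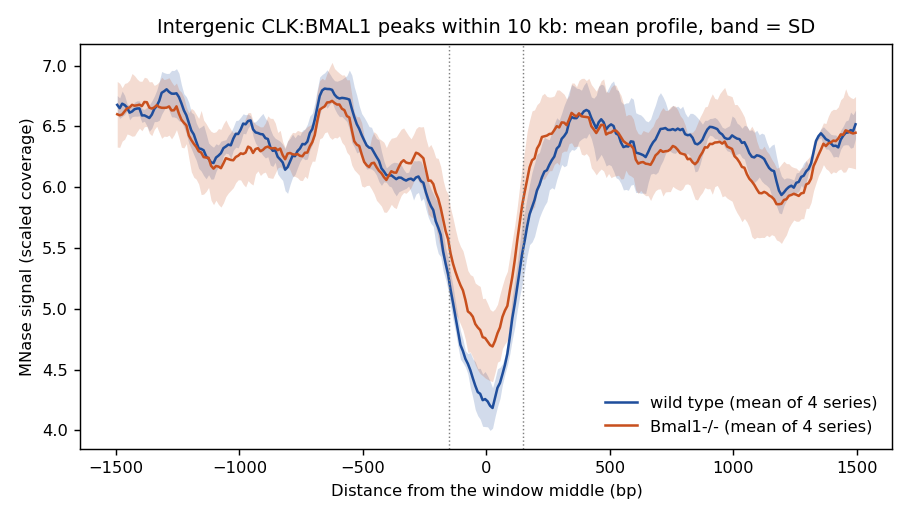
Mean MNase signal (scaled coverage, vertical axis) against the distance from the window middle in bp for the intergenic peaks within 10 kb, in wild type (blue) and Bmal1-/- (orange). Lines are means of 4 series, bands are 1 SD, and dotted lines mark 150 bp on each side. The wild-type line falls to 4.18 and the Bmal1-/- line to 4.69, both 25 bp right of the middle, while beyond 1000 bp the bands overlap.

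Trough depth was summarised as relative central signal, the mean signal within 150 bp of the middle in percent of the mean signal of the flank beyond 1000 bp. A higher value means a shallower trough. Wild-type series 11, 12, 26 and 27 had relative central signals of 72.2%, 72.95%, 71.6% and 72.9%. Bmal1-/- series 5, 8, 9 and 10 had 79.4%, 77%, 85.3% and 79.97%. All 4 Bmal1-/- series lay above all 4 wild-type series. The series averaged 72.4% ± 0.649 and 80.4% ± 3.50 (SD, n = 4 each), and the genotypes thus differed by 8.0 percentage points (exact two-sided permutation test of series, p = 0.0286, the smallest that 70 assignments allow). Adjusted over the 27 deposited peak sets by Benjamini-Hochberg, the exact permutation p was 0.0351; adjusted instead over the 3 levels of the class (relative, central and flank signal), it was 0.0857. Of the 27 overlapping sets, 22 (81.5%) passed an exact p under 0.05 in this comparison, the class among them. Without wild-type series 11 the difference was 7.92, and without series 26 it was 7.73 (exact permutation p = 0.0571 in both).

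No difference between genotypes was detected in the flank. The flank stood at 6.39 ± 0.0816 in wild-type and 6.30 ± 0.245 in Bmal1-/- series (SD, n = 4 each; exact permutation p = 0.571). Central signal before division by the flank was 4.63 ± 0.0414 and 5.07 ± 0.297 (SD, n = 4 series each; exact permutation p = 0.0571). The lowest of the Bmal1-/- central signals, 4.66 in series 8, fell below the highest wild-type value, 4.68 in series 11. Series 8 also had the lowest flank signal, 6.05, and lacked its ZT22 library.

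The mean genotype difference was smaller farther from the middle. It was 8.0 percentage points within 150 bp, 5.39 from 150 to 300 bp (exact permutation p = 0.143), 1.3 from 300 to 500 bp (exact permutation p = 0.4), -0.0888 from 500 to 750 bp and -0.137 from 750 to 1000 bp. None of the 5 zones passed adjustment over the zones, where the smallest adjusted exact permutation p was 0.143 in the central zone. Since 0.0286 is the smallest exact permutation p for 4 against 4 series, a difference in 1 zone alone could not pass this adjustment. Within 150 bp the genotype difference was 8.22 points on the left of the middle and 7.78 on the right (exact permutation p = 0.0286 each, 0.143 adjusted over 10 zones and sides).

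No difference in the width of the trough was detected. Its depth at the lowest point was greater in every wild-type series than in any Bmal1-/- series. That difference did not pass adjustment over the 5 measures of shape, which 1 measure alone could not pass with 4 against 4 series. At its lowest point the trough reached 34.7% ± 2.45 of the flank below the flank level in wild-type and 25.8% ± 2.86 in Bmal1-/- series (SD, n = 4 each; exact permutation p = 0.0286, 0.143 adjusted over 5 measures of shape). Its width, taken midway between flank and lowest point, differed by -22.5 bp (Bmal1-/- minus wild type; SD between series 41.2 and 42.7 bp, n = 4 each; exact permutation p = 0.571). Wild-type widths of 340, 320, 260 and 260 bp overlapped Bmal1-/- widths of 320, 290, 220 and 260 bp.

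Position by position, a limma fit over all 8100 positions of the 27 peak sets called 210 bp of the class profile higher in Bmal1-/- and 0 bp lower, at a Benjamini-Hochberg adjusted p under 0.05. The called stretch ran from -120 to 90 bp. At the strongest position, 25 bp, the log2 difference was 0.0755 ± 0.0176 (SE) on the log2(signal + 5.51) scale, which understates the change of the signal itself. These were 21 of 300 positions, 7%, against a background of 7.7% called higher and 0.173% called lower over the whole table. Within 150 bp, 70% of the class positions were called, and 71.2% of those in the other sets. Some of the other sets share peaks with the class, among them the all-peak set and the top sets of the class. The class thus resembled the table as a whole in the extent of its call. Calling moved with single series: 290 bp were higher and 570 bp lower without series 5, and 480 bp were higher without series 8. It also moved with the scaling: median centring of the libraries gave 380 bp higher, while quantile normalization gave 0 bp higher and 10 bp lower. A fit to the means of the 8 series called 0 bp (90 bp at an unadjusted limma p under 0.05).

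At each time of day the genotypes were compared mouse by mouse. The genotype difference passed the adjusted test at the 3 light times and at ZT14, and was not detected at ZT18 and ZT22. At ZT06 wild-type mice 11, 12, 26 and 27 had relative central signals of 67.9%, 66.9%, 64.6% and 66.2%. Bmal1-/- mice 5, 8, 9 and 10 had 73.1%, 73.5%, 91.5% and 79.6% at that time. All Bmal1-/- mice lay above all wild-type mice at ZT06, by 13 percentage points on average (exact permutation p = 0.0286, 0.0429 adjusted over 6 times). The differences at ZT02, ZT10 and ZT14 were 9.84, 9.96 and 10.4 points, each with the same exact and adjusted permutation p. None of the 4 calls held with the centre taken within 50 bp, where the adjusted exact permutation p was 0.129 at ZT10 and 0.0571 at the other times, or in undivided scaled coverage, where it was 0.0857 at each. Mean differences at these 4 times were no smaller with the narrower centre. The smallest exact permutation p for 4 against 4 mice is 0.0286, so the adjusted p depends on how many of the 6 times reach it.

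At ZT18 the groups overlapped, with the wild-type values inside the range of the Bmal1-/- values. Wild-type mice 11, 12, 26 and 27 had 73.1%, 76.9%, 78.8% and 79.03%, and Bmal1-/- mice 5, 8, 9 and 10 had 70.5%, 71.5%, 84.5% and 82.1%. The difference was 0.185 points (exact permutation p = 0.943, adjusted 0.943). It changed sign when series 9 (-2.25), 10 (-1.48) or 11 (-1.10) was left out. At ZT22 the difference was 5.80 points with 3 Bmal1-/- mice at 88%, 82.98% and 74.3% and wild-type mice from 72.8% to 79.02% (exact permutation p = 0.2, adjusted 0.24). With 1 wild-type mouse fewer, adjusted exact permutation p-values at ZT02, ZT06, ZT10 and ZT14 ran from 0.0857 to 0.129, whichever series was left out, with differences of 8.20 to 13.5 points.

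**Figure D2:**
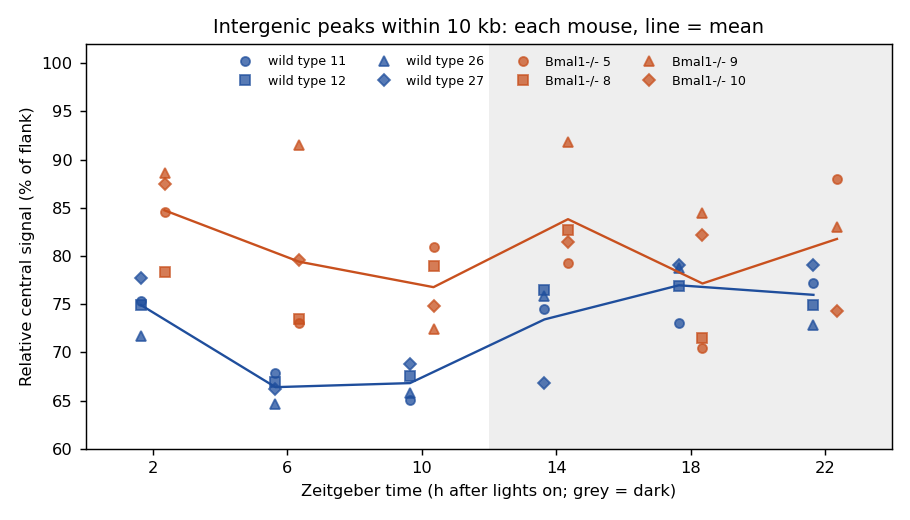
Relative central signal (percent of the flank, vertical axis) of each mouse against zeitgeber time in hours for the intergenic peaks within 10 kb. Symbols mark replicate numbers, lines join the means of wild type (blue) and Bmal1-/- (orange), and the dark phase is grey; wild-type mice sit between 64.6 and 68.8 at ZT06 and ZT10, while the 2 means meet near 77 at ZT18.

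In wild-type liver the trough deepened in the middle and late light phase. Means of relative central signal were 74.9% ± 2.44, 66.4% ± 1.36 and 66.8% ± 1.71 at ZT02, ZT06 and ZT10, and 73.4% ± 4.47, 76.96% ± 2.74 and 75.97% ± 2.71 at ZT14, ZT18 and ZT22 (SD, n = 4 mice each). All 8 wild-type mice at ZT06 and ZT10 lay between 64.6% and 68.8%. ZT02 was like the dark times, with values from 71.8% to 77.7%. Mouse 27 at ZT14, at 66.8%, was the only wild-type mouse of ZT02 or the dark phase inside the range of ZT06 and ZT10. Without it the genotype difference at ZT14 was 8.21 points (exact permutation p = 0.0571).

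Over the light and dark phases the wild-type means were 69.4% ± 4.43 and 75.5% ± 3.45 (SD, n = 12 mice each). Light was lower by 6.08 percentage points, and the light minus dark values of the 4 series were -5.52, -6.33, -8.41 and -4.07 points (two-sided permutation of mice, p = 0.0018, 0.00347 adjusted over 27 sets). Of the 27 sets, 24 (88.9%) passed an adjusted p under 0.05 in this contrast. Depth moved with it: relative depth was 1.61 ± 0.326 in light and 1.43 ± 0.252 in dark wild-type libraries (SD, n = 12 mice each). With relative depth as a covariate, an alternative added after the data were seen, the difference was -5.54 ± 1.7 points (SE; permutation p = 0.00377).

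Bmal1-/- liver showed no detected difference between light and dark. Its means were 80.3% ± 6.47 (SD, n = 12 mice) and 80.8% ± 6.59 (SD, n = 11 mice), a difference of -0.529 points (two-sided permutation of mice, p = 0.846). The series went both ways, with 2 lower and 2 higher in light. Bmal1-/- mice also differed more among themselves. The pooled SD between mice of the same genotype and time was 6.28 points in Bmal1-/- and 2.75 in wild type, and single libraries ran from 70.5% to 91.9% and from 64.6% to 79.03%. Whether this spread differed between genotypes was not tested.

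A 24 h harmonic described the wild-type time course with an amplitude of 5.70 ± 0.844 points and a minimum at ZT 8.17 ± 0.565 h (SE; permutation of times over mice, p = 2e-05). In Bmal1-/- the amplitude was 1.74 ± 1.96 points (SE; permutation p = 0.675). The genotypes differed in this time course. The light minus dark difference was 5.86 points higher in Bmal1-/- than in wild type, and the harmonic vectors of the series lay 5.57 points apart (exact permutation test of series, p = 0.0286 for each, 0.0286 adjusted over the 2 contrasts). Without ZT22, where a Bmal1-/- library is missing, the first of these was 5.64 points (exact permutation p = 0.0571). Both contrasts come from the same series, and 0.0286 is the smallest exact permutation p that 70 assignments allow.

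The times with the largest and the smallest genotype difference, ZT06 and ZT18, were also set side by side within each series. This contrast was picked from these values, so it is described here without a p-value. ZT06 minus ZT18 was -5.24, -10.1, -14.2 and -12.8 points in wild-type series 11, 12, 26 and 27. It was 2.58, 1.98, 7.03 and -2.52 points in Bmal1-/- series 5, 8, 9 and 10. Every wild-type series was lower at ZT06, as was 1 of the 4 Bmal1-/- series.

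Limma called 0 bp of the class profile for light against dark in wild type, where 330 bp had an unadjusted p under 0.05. Over the whole table the same contrast called 1.43% of positions lower in light and 0% higher. In Bmal1-/- it called 0 bp of the class, with 80 bp at an unadjusted p under 0.05, and 0% of the table in either direction. Without series 8, 70 bp of the class were called lower in light in wild type.

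**Figure D3:**
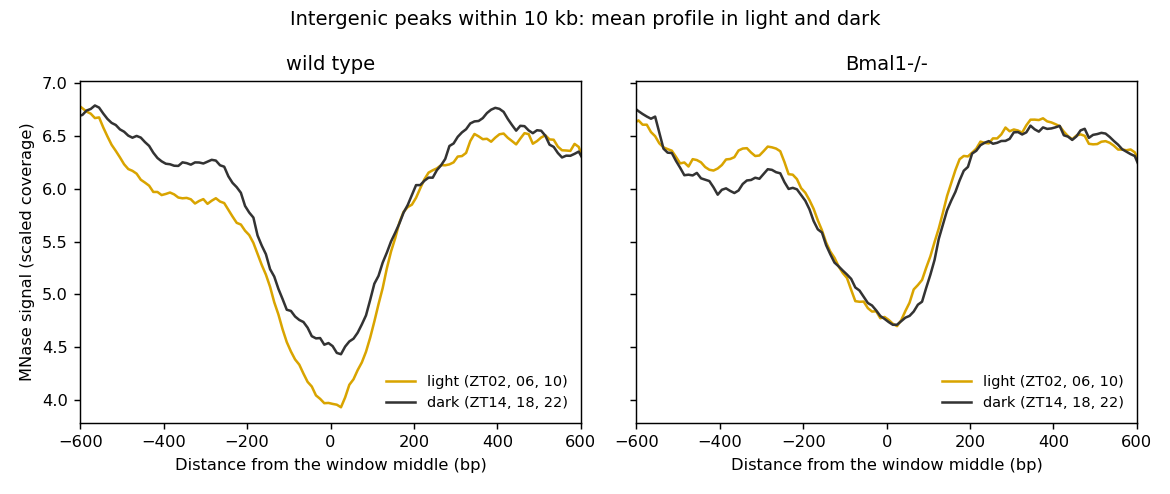
Mean MNase signal (scaled coverage, vertical axis) within 600 bp of the window middle (distance in bp) for the intergenic peaks within 10 kb, as means over the light times (yellow) and the dark times (black) in wild type (left) and Bmal1-/- (right). The light line runs below the dark line at the centre in wild type, where relative central signal was 69.4% in light and 75.5% in dark; in Bmal1-/- the lines overlap at the centre.

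A set of 100 peaks was deposited as the top of the class, by a ranking not given in the sources used here, and the remaining peaks of the profile were obtained by subtraction. Both parts showed the genotype difference. In wild type the top 100 had relative central signals of 76.7%, 73.3%, 72.8% and 72.1% in series 11, 12, 26 and 27, and in Bmal1-/- 82.9%, 77.97%, 87.2% and 83.2% in series 5, 8, 9 and 10. The difference was 9.10 points (exact permutation p = 0.0286, 0.0429 adjusted over 3 parts of the class). The remaining peaks averaged 71.8% ± 1.60 and 79.1% ± 3.54 over the series (SD, n = 4 each), 7.37 points apart with the same exact and adjusted permutation p. A set of 74 peaks, deposited as the top 25% of the class, had means of 75.97% ± 3.66 and 85.7% ± 4.47 (SD, n = 4 series each), 9.73 points apart (exact permutation p = 0.0571). Fewer peaks give fewer fragments: 716.8 to 1529 covered a central position of the top 100, a counting error of 2.56% to 3.74%.

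Averaged over the 8 series, the top 100 had a shallower trough than the remaining peaks. The difference was 2.84 points, in the same direction in 7 of 8 series, with wild-type series 27 at -1.29 (exact sign-flip permutation test of series, p = 0.0234, not adjusted). It averaged 1.97 ± 3.46 points in wild-type and 3.70 ± 1.86 points in Bmal1-/- series (SD, n = 4 each). The genotype difference of the top 100 exceeded that of the remaining peaks by 1.73 points, which was within the spread between series (exact permutation p = 0.429).

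In wild type light minus dark was -8.65 points in the top 100 (two-sided permutation of mice, p = 0.00342) and -4.75 points in the remaining peaks (permutation p = 0.0139). Adjusted over the 3 parts these were 0.0103 and 0.0139. The difference between the parts, -3.90 points, was not separated from the spread between mice (permutation p = 0.169, 0.226 adjusted over 2 set comparisons). Amplitudes of the harmonic were 7.17 ± 1.68 and 5.21 ± 0.935 points, with minima at ZT 7.07 ± 0.897 h and ZT 8.95 ± 0.685 h (SE). By time, the genotype differences of the top 100 were 12.8, 17.9 and 12.4 points at ZT02, ZT06 and ZT10, and 9.87, -1.12 and 3.71 points at ZT14, ZT18 and ZT22. No time passed adjustment over the 6 times in the top 100, where the smallest adjusted exact permutation p was 0.0857. In the remaining peaks the smallest was 0.0571, at ZT02, ZT06 and ZT14. Before adjustment the exact permutation p was 0.0286, the smallest possible, at those times and at ZT06 and ZT10 in the top 100. The adjusted p depends on how many times reach that value, so it does not rank these parts against the class.

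One wild-type library of the top 100 stood apart at ZT14. Mouse 27 had 59.2% there, against 84.4%, 81.6% and 82.5% in mice 11, 12 and 26. Without it the genotype difference of the top 100 at ZT14 was 3.96 points (exact permutation p = 0.143), and the wild-type light minus dark difference was -10.4 points (permutation p = 6e-05).

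**Figure D4:**
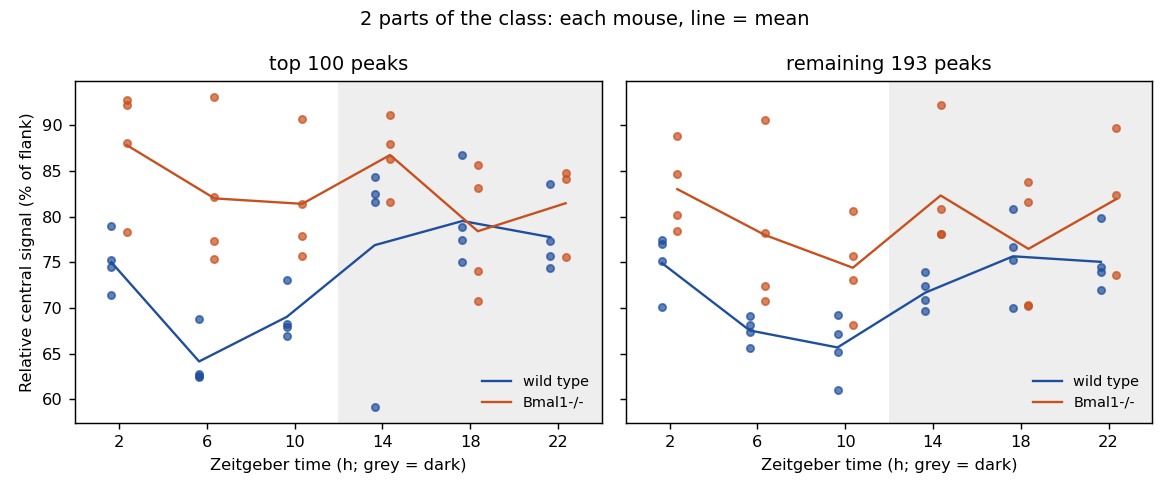
Relative central signal (percent of the flank, vertical axis) of each mouse against zeitgeber time in hours for the top 100 peaks (left) and the remaining peaks (right) of the intergenic class within 10 kb. Points are mice, lines join the means of wild type (blue) and Bmal1-/- (orange), grey marks the dark phase; both parts show wild-type minima in the light, and the low point at ZT14 on the left is mouse 27 at 59.2%.

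Set beside the other sites, the class differed most from peaks at a TSS. Its relative central signal was 15.9 points above that of the 583 TSS peaks, in 8 of 8 series (exact sign-flip permutation test, p = 0.00781, 0.0117 adjusted over 3 comparisons). It was 2.97 points above that of all other peaks together, also in 8 of 8 series (exact permutation p = 0.00781, adjusted 0.0117). That pooled set includes the TSS peaks, and the class did not lie above each of the other classes. Peaks in introns had means of 71.4% in wild type and 81.95% in Bmal1-/-, and other gene body peaks 73.6% and 82.4%, against 72.4% and 80.4% in the class (n = 4 series each; these pairs were not tested). Against the 717 intergenic peaks beyond 10 kb the class was 0.889 points higher, in 6 of 8 series (exact permutation p = 0.0859). Without series 10 the last difference was 1.15 points (exact permutation p = 0.0469).

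These differences depend on the flank. In scaled coverage the flank of the class, at 6.35 ± 0.176 (SD, n = 8 series), was below that of the intergenic peaks beyond 10 kb, at 6.65 ± 0.153, and below that of all other peaks, at 6.76 ± 0.231, in 8 of 8 series each (exact sign-flip permutation p = 0.00781 for both, 0.0117 adjusted over 6 levels). Central signal of the class was also the lower, with a difference of -0.175 units against the peaks beyond 10 kb in 8 of 8 series (exact permutation p = 0.00781, adjusted 0.0117). Against all other peaks the difference was -0.112 units in 6 of 8 series (exact permutation p = 0.0313, adjusted 0.0375). Scaled coverage thus put the class below these sets at the centre, while after division by its own lower flank its mean was above that of the pooled other peaks, TSS peaks included. Against TSS peaks central signal of the class was 0.971 units higher in 8 of 8 series (exact permutation p = 0.00781, adjusted 0.0117), the same direction on both scales.

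The genotype difference was not shown to be particular to the class. Class minus other set, it was -0.476 points against intergenic peaks beyond 10 kb (exact permutation p = 0.571), -0.580 points against all other peaks (exact permutation p = 0.629) and 4.53 points against TSS peaks (exact permutation p = 0.0571, 0.229 adjusted over 4 set comparisons). Without series 10 the last was 5.50 points (exact permutation p = 0.0286), while the first turned to 0.0457 points larger and the second to 0.160 points larger. The second also turned without series 12, to 0.00564 points larger. The wild-type light minus dark difference was -1.55 points in the class relative to all other peaks (permutation of mice, p = 0.226). Without series 27 that value was -2.51 points (permutation p = 0.0345).

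**Figure D5:**
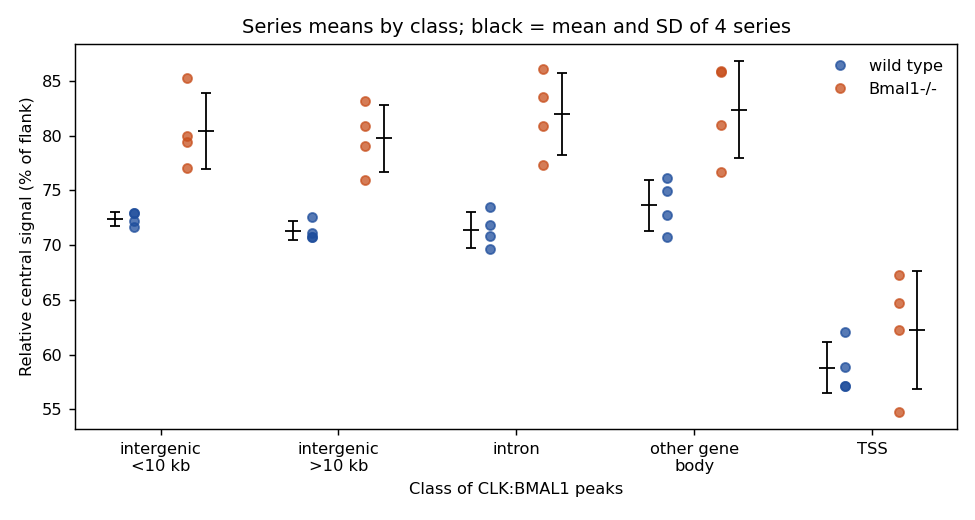
Relative central signal (percent of the flank, vertical axis) of the 8 series for 5 classes of CLK:BMAL1 peaks. Points are series of wild type (blue) and Bmal1-/- (orange), and black bars are the mean and SD of 4 series; the intergenic class within 10 kb, at 72.4% and 80.4%, lies near the intergenic, intron and other gene body peaks and above TSS peaks, at 58.8% and 62.3%.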

How the data were processed

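The authors deposited MNase signal, a scaled coverage averaged over sets of peaks, as 300 values 10 bp apart for each library and set, and a list of peak positions. Per the submitters' processing notes, CASAVA 1.7, Bowtie and mm9 were used; for duplicates, fragment length and scaling the sources used here give no detail. Depth was read from the step in signal that 1 fragment is worth. The list holds 294 members, the class profile 293 by its fragment steps. The remaining 193 peaks of the class and all other peaks were obtained by count-weighted subtraction.

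Light was ZT02, ZT06 and ZT10. Exact two-sided permutation tests used series or mice; tests with 100000 resamples used mice (scipy 1.17.1, numpy 2.4.6). The amplitude test was one-sided. limma 3.58.1 (R 4.3.3, trend) was fitted to log2(signal + 5.51), the 10th percentile, over 12 groups. Scripts were tested on simulated data. P-values measure the spread between these mice or series; what mice of the same number share is not stated.

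Named peaks were the first 3 and last 3 of the class in list order, the widest and the narrowest. Members, sets, measures and lists were chosen with earlier results of these data known. Alternatives were other widths of centre and flank, undivided signal, leaving out ZT22 or each replicate, and other scalings, filters and blocks. No sequence or gene is given, because the genome at hand is not mm9.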

Additional observations from a re-analysis of the deposited data

Results flagged for a closer look

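In 52 groups examined over the sets, chance alone would mark about 5% of groups as holding a value far from the rest, and the sets share libraries. Wild-type mouse 11 at ZT06 had a relative central signal of 68.82% in the top 100, with its nearest neighbour at 62.83%, and 70.55% in the top 74, with its nearest neighbour at 64.34%. In the top 100, wild-type mouse 27 at ZT14 had 59.15%, with its nearest neighbour at 81.58%. Wild-type mouse 11 at ZT22 had 98.18% in the top 74, with its nearest neighbour at 77.6%. Without that library the wild-type light minus dark difference of the top 74 was -7.92 points (permutation of mice, p = 0.0155) in place of -9.50 (permutation p = 0.00792), and without mouse 11 at ZT06 it was -9.44 (permutation p = 0.0112).

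Both contrasts of time between genotypes in the class differed by their own test: light minus dark by 5.864 points and the 24 h harmonic by 5.569 points (exact permutation test of 4 and 4 series, p = 0.0286 for each).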

How the results depend on the processing

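Of 401 values recomputed under other settings, 332 were counted as unchanged. A tested difference counted when it kept its direction and its side of 0.05, passing or not. A called width or a count of zones counted when it stayed equal or close in size. The unchanged values were 83.8% of the 240 values that leave out 1 replicate and 81.4% of those under other settings. The 401 values include those of the ZT06 minus ZT18 contrast, which was picked from these data. The causes of the changes below were not tested, except that leaving out a mouse leaves fewer samples and that the filter removed positions.

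With the centre taken within 50 bp, the genotype differences at ZT02, ZT06 and ZT14 were 12.41, 14.98 and 11.66 points (adjusted exact permutation p = 0.0571 each) and at ZT10 10.03 (adjusted exact permutation p = 0.129), and that of the class minus TSS peaks was 4.49 (exact permutation p = 0.0286). With the centre within 250 bp, the class exceeded intergenic peaks beyond 10 kb by 1.03 points (exact permutation p = 0.0234), and the genotype differences between sets turned to 0.330 against those peaks, 0.213 against all other peaks and -0.0451 for the top 100 against the remaining peaks. With the flank beyond 750 bp, light minus dark in Bmal1-/- turned to 0.0161 points.

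In signal as scaled by the authors, in units of scaled coverage, the genotype difference was 0.444 (exact permutation p = 0.0571), and by time 0.727, 0.792, 0.4995 and 0.576 at ZT02, ZT06, ZT10 and ZT14 (adjusted exact permutation p = 0.0857 each). It turned to -0.0339 at ZT18 and to -0.00577 from 300 to 500 bp, and light minus dark in Bmal1-/- turned to 0.0411. The class minus intergenic peaks beyond 10 kb turned to -0.175, and the class minus all other peaks to -0.112. The genotype difference of the class minus TSS peaks was 0.322 (exact permutation p = 0.0286). Without ZT22 the genotype difference of light minus dark was 5.64 points (exact permutation p = 0.0571), and the class exceeded intergenic peaks beyond 10 kb by 0.915 (exact permutation p = 0.0234).

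The width called by limma between genotypes was 380 bp after median centring of the libraries, 10 bp (lower) after quantile normalization, 350 bp in a fit to the 300 positions alone and 0 bp in a fit to the 8 series means. It was 0 bp once the 25% of positions with least signal were dropped, which kept 50.7% of the 300 class positions and 0 of those within 150 bp, and 10 bp had an unadjusted p under 0.05. Between light and dark in wild type 50 bp were called with median centring.

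Mice of the same number did not deviate together throughout: median correlations of their deviations over pairs of times ran from -0.000447 to 0.211 over the 8 numbers. The main tests of light against dark and of the harmonic within a genotype therefore permuted mice without regard to their numbers. Exact genotype tests over all times and sign-flip tests between sets did group the mice by number, into series. With the number as a replicate block, limma called 100 bp lower in light in wild type and 0 bp in Bmal1-/-, light minus dark in wild type was -6.08 (permutation p = 0.00407), and all 6 block tests of relative central signal kept their call.

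Leaving out each replicate, the genotype difference ran from 6.37 to 9.14 points, and by time from 8.56 to 11.96 at ZT02, 8.998 to 15.1 at ZT06, 8.56 to 11.4 at ZT10, 7.72 to 11.9 at ZT14 and -2.25 to 2.41 at ZT18. Light minus dark in Bmal1-/- ran from -1.21 to 0.288, and ZT06 minus ZT18 between genotypes from 11.25 to 14.6. The class minus intergenic peaks beyond 10 kb ran from 0.696 to 1.15, and its genotype difference from -0.984 to 0.0457. Genotype differences against TSS peaks ran from 3.16 to 5.50 and against all other peaks from -1.13 to 0.160, and wild-type light minus dark against all other peaks from -2.51 to -1.18. Genotype differences ran from -1.01 to 0.337 at 500 to 750 bp and from -0.766 to 0.225 at 750 to 1000 bp. Called widths ran from 140 to 860 bp between genotypes and from 0 to 70 bp between light and dark in wild type. At a single time the pooled SD between mice was 6.28 points in Bmal1-/- and 2.75 points in wild type. The counting error was given for 1 position in percent of its count, so the 2 were not compared.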
